A study of Mus musculus with 2 samples.

Results

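Levels of 43 cell cycle and DNA replication genes were read in the cytosol of mouse macrophages after repeated exposure to lipid A, which is the portion of lipopolysaccharide that TLR4 senses. The members were matched by gene symbol alone, with no threshold on a measured value, and all 43 were found once each among 55536 annotated genes. They fall by role into origin licensing and the replicative helicase (9 genes), the replication clamp and nucleotide supply (5), cyclins of G1 with inhibitors of cyclin-dependent kinases (CDKs) and E2F factors (9), cyclins and kinases of S phase and mitosis (8), the spindle checkpoint and anaphase-promoting complex (5), and spindle motors, kinetochore and chromosome proteins (7). The cells were primary macrophages grown from the bone marrow of C57BL/6J mice, whose age and sex the labels do not give. They received lipid A at 100 ng/ml over 12 h, were rested without it for another 12 h, and received the same dose again for a final 75 min. Total RNA of the cytosolic fraction, depleted of ribosomal RNA, was sequenced in 2 biological replicates that form 1 group. Cells without lipid A, or treated a single time, were not analysed here, and no response to lipid A was therefore measured.

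A dividing cell first licenses its replication origins by loading the MCM helicase in G1, copies its DNA in S phase, and then builds a spindle and separates its chromosomes in mitosis. CDKs with cyclins of the D, E, A and B types drive these steps, and inhibitors such as p21 (encoded by Cdkn1a) and p27 (encoded by Cdkn1b) hold them back. Pocket proteins of the retinoblastoma family bind E2F factors and repress replication genes in resting cells, while the DREAM complex acts through promoter elements called CHR on genes of G2 and mitosis. Mouse bone marrow-derived macrophages divide in response to the growth factor M-CSF, and lipopolysaccharide is known to halt that division.

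Expected counts on annotated genes summed to 64187219 in replicate 1 and 49429864 in replicate 2, so that replicate 1 has the smaller counting error. Expected counts are estimates of reads per gene, and TPM corrects them for transcript length and scales each library to a fixed total. 7SL, a short structured RNA, held 62.9% and 60.3% of TPM in replicates 1 and 2, which lowers the TPM of every message in a library alike. Macrophage markers were all detected (10 of 10, summed TPM 6211 and 6821 in replicates 1 and 2). Of 10 myeloid progenitor markers none reached a TPM of 1 (summed TPM 0.61 and 0.87), with Ms4a3 at 0 counts in replicate 1 and 2 in replicate 2. Of 8 neutrophil markers 3 were detected, and they summed to 7.68 and 14.08 TPM, with Ly6g and Retnlg at 0 in both, and erythroid, lymphoid and fibroblast markers had sums of at most 0.09 TPM. The nuclear RNAs Malat1 and Neat1 were higher in replicate 2, at 132 and 384 TPM and at 7.96 and 29.7 TPM in replicates 1 and 2. Xist, another nuclear RNA, was lower there, as given below. The labels give both replicates the same donor code and separate biosample records. What the p-values below capture is thus the difference between these libraries, and part of it may be technical.

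Replication and mitotic genes are known to be controlled through different promoter elements, and 6 member promoters are shown because they hold examples of both. Each window runs from 250 bases before to 50 bases after an annotated start, from RefSeq on build GRCm38.p6, the assembly also called mm10, and reads 5′ to 3′ on the gene's strand. Capitals mark matches to the CHR (TTTGAA) or to an E2F element (TTTCGCGC, TTTGGCGC, TTTCCCGC or TTTGCCGC) on either strand, and no CHR match shared a base with an E2F match in any member window. The E2F element reads in part the same on both strands, so that 1 site can give matches on both that overlap by 4 bases, as in Mcm5 and Mcm6. In Ube2c the CHR lies on the other strand and reads TTCAAA. The windows lie at chr1:128359656-128359955 (minus strand) for Mcm6, chr8:75109259-75109558 (plus) for Mcm5, chr10:69352863-69353162 (minus) for Cdk1, chr9:70421505-70421804 (minus) for Ccnb2, chr2:164769679-164769978 (plus) for Ube2c and chr7:135716330-135716629 (minus) for Mki67.
Mcm6, helicase subunit: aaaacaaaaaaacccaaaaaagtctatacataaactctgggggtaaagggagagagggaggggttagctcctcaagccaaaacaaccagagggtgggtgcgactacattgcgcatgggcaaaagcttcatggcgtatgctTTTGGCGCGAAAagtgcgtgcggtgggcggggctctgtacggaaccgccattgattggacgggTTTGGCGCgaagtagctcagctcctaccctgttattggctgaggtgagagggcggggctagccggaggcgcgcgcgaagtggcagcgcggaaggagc
Mcm5, helicase subunit: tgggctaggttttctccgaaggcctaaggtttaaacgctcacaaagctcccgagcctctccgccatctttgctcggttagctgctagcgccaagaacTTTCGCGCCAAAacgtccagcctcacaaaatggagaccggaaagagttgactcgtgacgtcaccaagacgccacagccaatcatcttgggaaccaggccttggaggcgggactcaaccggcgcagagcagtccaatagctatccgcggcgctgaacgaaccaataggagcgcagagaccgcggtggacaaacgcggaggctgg
Cdk1, mitotic kinase: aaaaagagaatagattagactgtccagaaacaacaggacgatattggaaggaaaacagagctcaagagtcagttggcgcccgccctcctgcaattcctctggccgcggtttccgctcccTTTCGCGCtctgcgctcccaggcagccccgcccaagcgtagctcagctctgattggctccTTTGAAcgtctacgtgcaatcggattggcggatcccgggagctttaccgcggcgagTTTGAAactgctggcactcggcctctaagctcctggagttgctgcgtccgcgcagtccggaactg
Ccnb2, mitotic cyclin: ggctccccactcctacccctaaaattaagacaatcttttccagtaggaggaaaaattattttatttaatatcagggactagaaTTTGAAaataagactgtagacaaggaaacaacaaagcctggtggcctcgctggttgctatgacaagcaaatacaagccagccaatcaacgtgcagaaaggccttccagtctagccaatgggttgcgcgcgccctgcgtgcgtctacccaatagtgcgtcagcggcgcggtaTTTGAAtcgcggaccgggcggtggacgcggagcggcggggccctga
Ube2c, ubiquitin-conjugating enzyme of mitotic exit: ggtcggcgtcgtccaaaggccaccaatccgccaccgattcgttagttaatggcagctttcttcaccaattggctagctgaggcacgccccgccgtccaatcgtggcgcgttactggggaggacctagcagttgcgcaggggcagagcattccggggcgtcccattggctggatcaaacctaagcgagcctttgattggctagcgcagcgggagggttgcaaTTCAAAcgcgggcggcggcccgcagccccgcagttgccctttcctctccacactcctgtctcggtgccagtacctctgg
Mki67, chromosome surface protein: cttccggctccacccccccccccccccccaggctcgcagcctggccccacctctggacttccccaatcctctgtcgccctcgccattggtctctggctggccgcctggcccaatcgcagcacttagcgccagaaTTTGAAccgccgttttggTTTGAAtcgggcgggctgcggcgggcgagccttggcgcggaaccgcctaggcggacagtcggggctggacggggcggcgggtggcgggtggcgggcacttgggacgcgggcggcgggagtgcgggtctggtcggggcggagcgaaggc

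RefSeq gave 37 windows for 33 of the 43 members, and none was used for Tpx2, Mcm4, Ccna2, Aurkb, Ccnd1, Ccne2, Foxm1, Gins2, Kif20a and Ccnd2. A CHR match stood in 11 of 15 windows of the mitotic genes (the last 3 role groups), or 73.3%, against 17.9% of all 32851 mouse windows. Those 11 were Aurka, Bub1b, Ccnb2, Cdc20, Cdk1, Cenpf, Kif11, Mki67, Plk1, Top2a and Ube2c, and in 10 of them a match lay within 50 bases of the annotated start. Birc5, Bub1, Ccnb1 and Cenpe had none in their windows. Of 13 windows of the replication genes (the first 2 role groups), 2 held a CHR match, those of Cdc45 and Mcm2. An E2F element stood in 5 of 8 windows of licensing and helicase genes, or 62.5%, namely Cdc6, Mcm3, Mcm5, Mcm6 and Mcm7, against 2.26% of all windows. It stood in none of the 5 windows of clamp and nucleotide genes, which makes 5 of 13 (38.5%) over the replication genes. Among the mitotic genes Cdk1 alone had one, and among the G1 genes E2f2 alone. The 1 window used for E2f1, at chr2:154569377-154569676, held none. Promoters at any other start of these genes were not searched, so a missing match does not show that a gene lacks the element. The CCAAT box (CCAAT on either strand), bound by NF-Y, stood in 14 of 15 mitotic windows (93.3%), in 10 of 13 replication windows (76.9%) and in 28 of 37 windows of all members (75.7%), against 37.4% of all mouse windows. Neither window of Cdkn1a held a CHR, an E2F element or a CCAAT box. These matches are descriptions of letters, and binding was not measured.

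**Figure D1:**
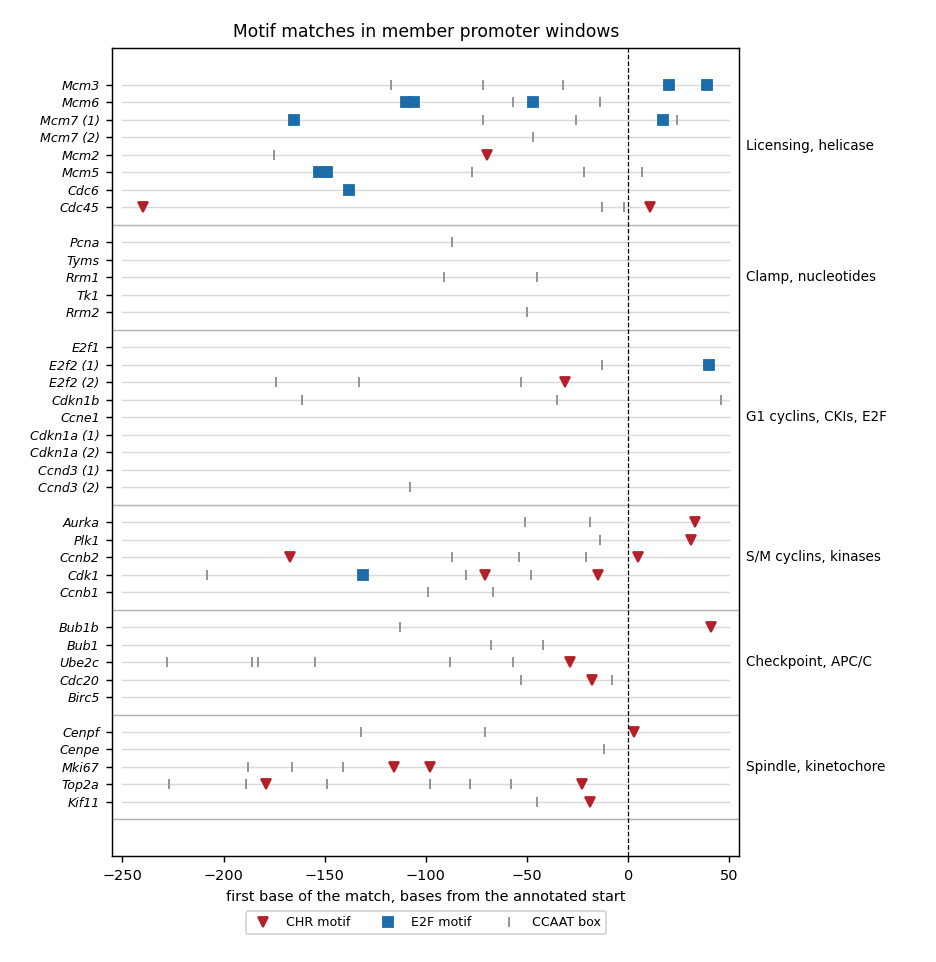
Positions of motif matches in the 37 promoter windows of members, by role. The x axis gives the first base of each match in bases from the annotated start (dashed line); red triangles are CHR matches, blue squares E2F matches and grey ticks CCAAT boxes, and a number in brackets tells apart windows of one gene. CHR matches gather in the lower 3 groups, 10 of them genes with a match within 50 bases of the start, and E2F matches in the helicase genes at the top.

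Messages of the cell cycle were mostly low in these cells, and a few members stood far above the rest. The CDK inhibitor Cdkn1a stood at 275 and 163 TPM in replicates 1 and 2, the clamp Pcna at 68.4 and 57.3, and the proliferation marker Mki67 at 16.9 and 12.9. The median over all 43 members was 1.33 and 0.97 TPM (1.15 ± 0.255, SD, n = 2). With detection set at TPM 1 or above in each replicate, 20 of 43 members were detected, or 46.5%. The same rule called 16.7% of all annotated genes and 40.0% of 22028 protein-coding genes. Of the 43, 1 was high (at least 100 TPM in both), 2 were moderate (10 to under 100), 17 low (1 to under 10) and 23 under 1 in at least 1 replicate, 19 of them in both. By the same rule 386 of the 22028 protein-coding genes were high, 3050 moderate, 5376 low and 13216 under 1, 12836 of them in both. All protein-coding genes, detected or not, had medians of 0.12 and 0.11 TPM, below those of the 43 members. The detected protein-coding genes alone had medians of 8.03 and 7.32 TPM, and the detected members alone a median of 4.40 (mean of the replicates). All 43 members had at least 10 expected counts in both replicates, so a TPM under 1 here does not mean that no reads were seen. In a bulk library, fewer dividing cells and less message per dividing cell cannot be told apart. With TPM rescaled to protein-coding genes, which takes 7SL out of the scale, 35 members were detected and the median was 4.07. That rescaling raises every gene of a library by the same factor, and the matching share of all genes is not given here. Cdkn1a held 60.5% and 50.4% of the members' summed TPM in replicates 1 and 2.

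**Figure D2:**
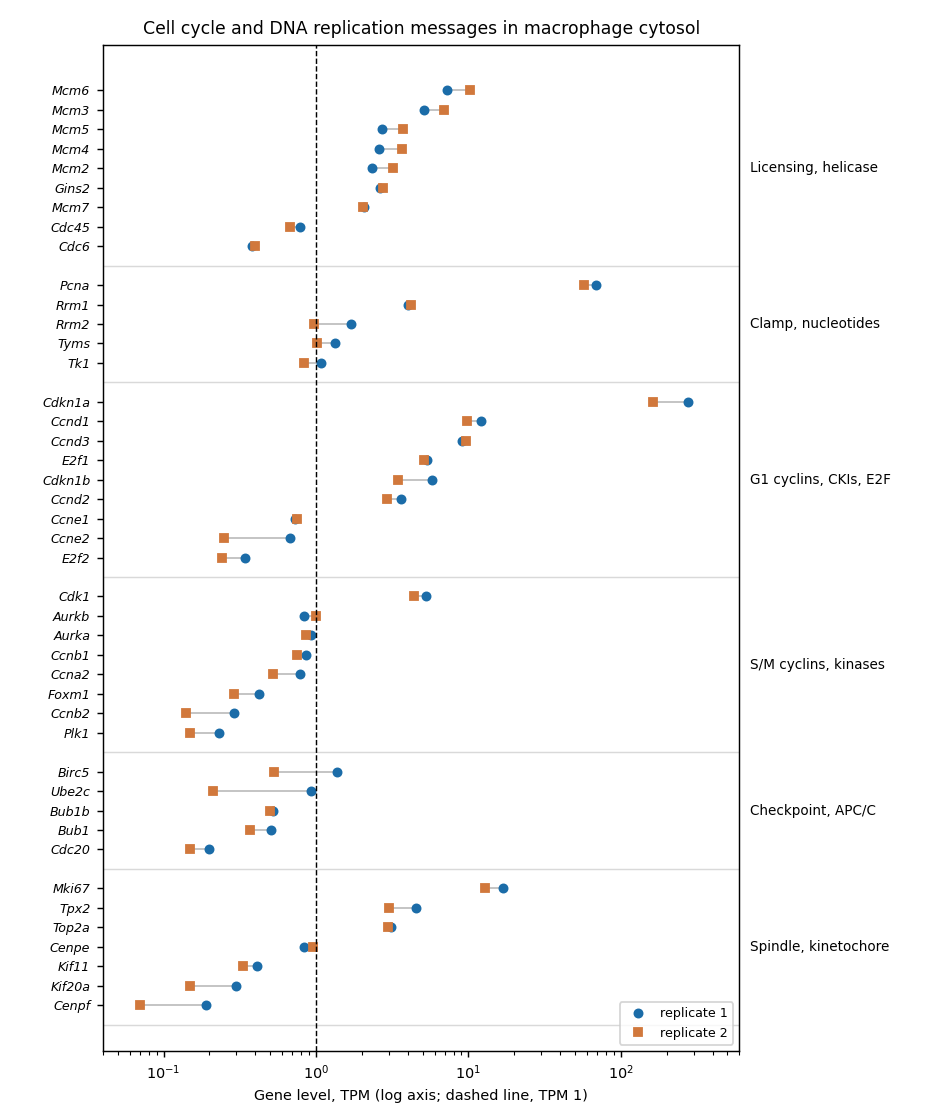
Level of each of the 43 members in TPM on a log axis, by role and ordered by mean within a role. Circles are replicate 1, squares replicate 2, grey bars join them, and the dashed line is a TPM of 1. Cdkn1a lies alone above 100, Pcna and Mki67 lie above 10 in both replicates, and all 5 checkpoint and anaphase genes lie under 1 in at least 1 replicate.

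Licensing and helicase genes were low but mostly detected (7 of 9, medians 2.58 and 3.21 TPM in replicates 1 and 2). Mcm2 to Mcm7 encode the ring-shaped helicase that is loaded on origins, and all 6 were detected, with medians of 2.64 and 3.68. Mcm6 was the highest of them at 7.21 and 10.24 TPM (2175 and 2553 expected counts), followed by Mcm3 at 5.13 and 6.88. Mcm5 stood at 2.70 and 3.72 TPM, Mcm4 at 2.58 and 3.64, and Mcm2 at 2.34 and 3.21, and the ranges of these 3 overlapped. Mcm7 was the lowest at 2.07 and 2.03. The highest of the 6 was 3.48 and 5.04 times the lowest in replicates 1 and 2, although the subunits are used in equal numbers in the helicase. Gins2, a subunit of the GINS complex that activates the helicase, stood at 2.62 and 2.77 TPM. Both members under 1 were Cdc45, which joins GINS on the active helicase, at 0.79 and 0.67, and Cdc6, the loader that places MCM on origins, at 0.38 and 0.40. The replicates of Cdc6 held 127 and 123 expected counts.

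The clamp stood far above the enzymes that make nucleotides. Pcna encodes the sliding clamp of DNA polymerases, which also serves in DNA repair, and its TPM was 25.9 and 15.6 times the median of Mcm2 to Mcm7 in replicates 1 and 2 (9936 and 6776 expected counts). Rrm1, the large subunit of ribonucleotide reductase, stood at 4.03 and 4.21 TPM, and Rrm2, its small subunit, which is made in S phase, at 1.69 and 0.97. Rrm1 was thus 2.38 and 4.34 times as high as Rrm2. Tyms, thymidylate synthase, stood at 1.33 and 1.01 TPM and Tk1, the thymidine kinase of dividing cells, at 1.08 and 0.83. The ranges of Rrm2, Tyms and Tk1 over the replicates overlapped. In the other direction of the same pathway, Samhd1, which breaks down deoxynucleotides, was the highest of all cell cycle genes looked at, with 312 TPM in both replicates. That is 54.6 and 60.3 times the summed TPM of Rrm1 and Rrm2. Of the 8 other nucleotide genes 6 were detected, and next to Samhd1 the highest were the salvage kinases Dck (21.6 and 20.8) and Tk2 (13.5 and 11.2), which do not depend on division. Dctd, a deaminase that supplies thymidylate synthesis, was the lowest at 0.27 and 0.20 TPM.

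Among G1 genes the inhibitor Cdkn1a was far above its partners. It lies on mm10 at chr17:29090976-29100727 on the plus strand, held 52069 and 25199 expected counts in replicates 1 and 2, and stood above 99.4% and 99.0% of protein-coding genes. Its TPM was 4.02 and 2.85 times that of Pcna and 47.9 and 47.0 times that of Cdkn1b, p27, which stood at 5.75 and 3.47. It was also 6.41 and 4.91 times the summed TPM of the kinase genes Cdk1, Cdk2, Cdk4 and Cdk6. The other 5 inhibitor genes stood lower, with Cdkn2d, Cdkn2c and Cdkn1c at 4.18 and 2.89, at 3.03 and 1.77 and at 3.33 and 1.43 TPM. Cdkn2b and Cdkn2a, the INK4 genes linked to senescence, were at 0.14 and 0.19 and at 0.09 and 0.07, on 19 and 20 and on 7 and 4 expected counts.

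The D cyclins, which growth factors raise in G1, were all detected, and the E cyclins were not. Ccnd1 stood at 12.06 and 9.86 TPM, Ccnd3 at 9.13 and 9.68 and Ccnd2 at 3.59 and 2.93 in replicates 1 and 2, so that Ccnd1 was above Ccnd3 in each replicate, but narrowly in replicate 2. Together the D cyclins summed to 24.8 and 22.5 TPM, which was 7.42 and 9.32 times the sum of the 5 cyclins of the E, A and B types. Ccne1, an activator of CDK2 at the start of S phase, stood at 0.73 and 0.75, and its paralog Ccne2 at 0.67 and 0.25. E2f1, an activator of replication genes, stood at 5.38 and 5.11 TPM, and the related E2f2 at 0.34 and 0.24. Of 18 other kinase, pocket protein and E2F genes 13 were detected. Cdk4 and Cdk6, partners of the D cyclins, stood at 21.24 and 17.04 and at 12.6 and 8.23 TPM, and Cdk2, the partner of the E cyclins, at 3.84 and 3.56. The pocket protein genes Rb1 and Rbl2 stood at 11.4 and 11.7 and at 7.10 and 7.25 TPM. At the low end of that list were Skp2, which targets p27 for destruction, at 0.79 and 0.61, and E2f7, a repressor made in S phase, at 0.12 and 0.06.

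Cyclins and kinases of S phase and mitosis were under 1 TPM in at least 1 replicate in 7 of 8 cases, and in both in 6 (medians 0.81 and 0.64 in replicates 1 and 2). Cdk1, the kinase that starts mitosis, was the exception at 5.26 and 4.42 TPM. Its cyclins were lower, with Ccna2 at 0.79 and 0.52, Ccnb1 at 0.86 and 0.75 and Ccnb2 at 0.29 and 0.14, the last on 43 and 17 expected counts. Aurkb, the kinase of the chromosomal passenger complex, stood at 0.83 and 1.00 TPM, and Aurka, which matures spindle poles, at 0.92 and 0.86. Plk1, a kinase of mitotic entry, stood at 0.23 and 0.15, and Foxm1, a transcription factor of G2 and mitotic genes, at 0.42 and 0.29. The ranges of Aurka and Ccnb1 met at 0.86 TPM. Myeloid progenitors divide, and their markers summed to under 1 TPM in each replicate, as given above. Their part in these levels was not tested.

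None of the 5 checkpoint and anaphase genes was detected (medians 0.52 and 0.37 TPM). Bub1b, of the checkpoint complex that restrains the anaphase-promoting complex, stood at 0.52 and 0.50, and Bub1, a checkpoint kinase at kinetochores, at 0.51 and 0.37. Cdc20, the activator of the anaphase-promoting complex, was at 0.20 and 0.15 TPM on 35 and 21 expected counts. The survivin gene Birc5, of the passenger complex, reached 1.38 in replicate 1 and 0.53 in replicate 2, and Ube2c, which supplies ubiquitin to the complex, 0.93 and 0.21. Among 13 other genes of mitotic entry and exit 8 were detected, led by Pttg1, securin, at 33.0 and 23.4 TPM and by the anaphase-promoting complex subunits Anapc11 (17.3 and 11.6) and Cdc27 (10.20 and 8.74). The lowest were the kinase Nek2 at 0.14 in both and the phosphatase Cdc25c at 0.05 and 0.07 TPM.

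Spindle and chromosome genes held 3 detected members among 7, which were not motors but chromosome or spindle assembly proteins. Mki67 encodes Ki-67, which coats mitotic chromosomes, and lies on mm10 at chr7:135689784-135716361 on the minus strand. It held 18271 and 11193 expected counts in replicates 1 and 2, second to Cdkn1a among the members, and its TPM was 21.4 and 25.7 times the median of the other 19 mitotic genes. Tpx2, a spindle assembly factor that activates Aurora A, stood at 4.53 and 3.0 TPM, and Top2a, the topoisomerase that untangles chromosomes, at 3.10 and 2.96. The kinesins Kif11, which pushes spindle poles apart, and Kif20a, which acts in cytokinesis, were at 0.41 and 0.33 and at 0.30 and 0.15. Cenpe, a kinetochore motor, stood at 0.83 and 0.95 TPM and Cenpf, a kinetochore protein, at 0.19 and 0.07. In replicate 1, 0.10 TPM of Cenpf came from Cenpf-202, a transcript of 358 bases with 1.63 expected counts. Cenpf-204, of 11130 bases, stood at 0.08 and 0.06 TPM in replicates 1 and 2. Tpx2, Top2a and Mki67 were thus detected beside 16 mitotic genes that were not, and Cdk1 was the other mitotic member above the limit. Of 21 other kinetochore, spindle and cytokinesis genes 5 were detected (medians 0.59 and 0.36), led by the passenger subunit Incenp (7.12 and 8.28), the kinetochore subunit Spc25 (2.35 and 1.93) and the kinesin Kif23 (2.34 and 1.27). Kif18b, a kinesin that shortens microtubules, and Aspm, a spindle pole protein, were the lowest at 0.17 and 0.09 and at 0.06 and 0.04.

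Set side by side, the 14 replication genes had medians of 2.46 and 2.99 TPM in replicates 1 and 2, and the 20 mitotic genes 0.81 and 0.51. Of the replication genes 10 were detected (71.4%), and of the mitotic genes 4 (20%). On the log2(TPM + 0.1) scale the replication median exceeded the mitotic one by 1.49 in replicate 1 and 2.34 in replicate 2 (mean 1.91 ± 0.60, SD, n = 2), and no test was run since the genes are not replicates. Over the members detected in both replicates, 10 replication genes and 4 mitotic ones, the difference was -0.85 in replicate 1 and 0.01 in replicate 2 (mean -0.42 ± 0.61, SD, n = 2).

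Other genes of the same pathways followed no single level. Of 121 further cell cycle genes in 9 lists 81 were detected (66.9%), with medians of 2.53 and 1.94 TPM. In the origin recognition list 12 of 16 were detected, led by the origin recognition subunits Orc4 (8.67 and 7.67) and Orc3 (7.5 and 6.45) and the GINS subunit Gins4 (7.57 and 7.09). The lowest in that list were Orc1, at 0.16 and 0.27, and Ticrr, which helps to load Cdc45, at 0.10 and 0.12. Cdt1, the partner of Cdc6 in licensing, and its inhibitor Gmnn, geminin, stood at 4.30 and 4.05 and at 4.12 and 4.15 TPM. Of 24 replication fork genes 21 were detected, led by the clamp loader subunits Rfc2 (19.8 and 19.4) and Rfc1 (11.8 and 12.4) and the single-strand binding subunit Rpa1 (7.79 and 9.73), while the DNA polymerase epsilon genes Pole2 (0.53 and 0.60) and Pole (0.43 and 0.60) were the lowest. Of 6 DREAM and MuvB genes 5 were detected, Rbbp4 (12.5 and 12.1), Lin37 (9.41 and 6.17) and Lin54 (3.49 and 2.81) being the highest. Lin52 stood at 1.95 and 1.63, and Mybl2, which replaces DREAM on mitotic promoters in dividing cells, at 0.25 and 0.18. In the list of p53 and DNA damage genes, 8 of 10 were detected, with medians of 12.6 and 9.12 TPM. It was led by Mdm2, the ubiquitin ligase of p53, at 98.9 and 55.8, Ccng1, cyclin G1, at 52.4 and 37.2, and Gadd45a, a stress gene, at 45.7 and 17.2. Trp53, p53 itself, a known activator of Cdkn1a, stood at 12.5 and 9.78 TPM, and the checkpoint kinase genes Atr and Chek1 were lowest at 0.87 and 1.12 and at 0.40 and 0.59.

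**Figure D3:**
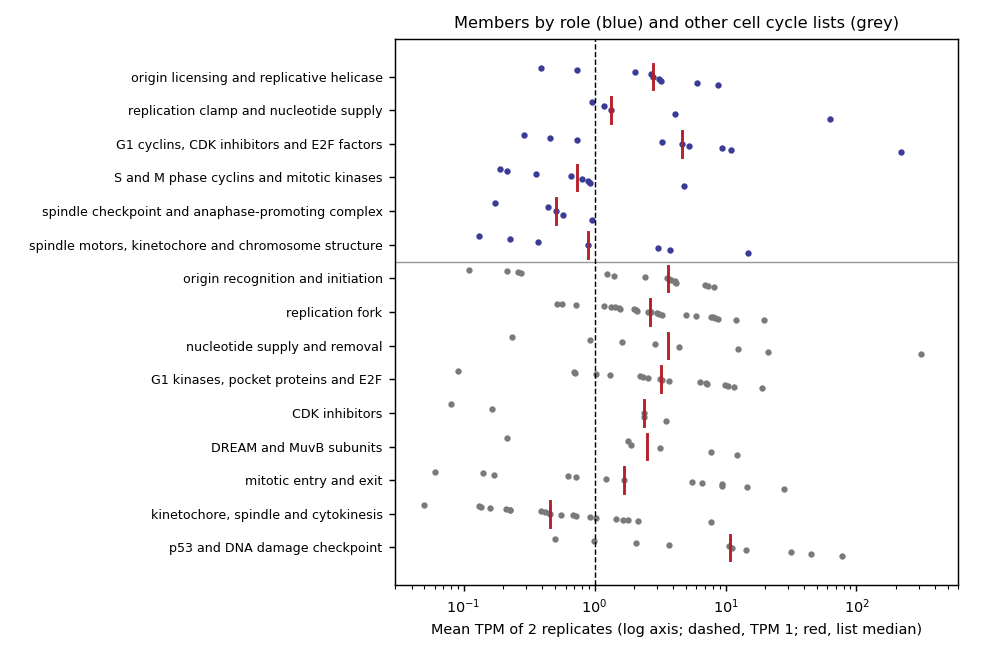
Mean TPM over 2 replicates of each member (blue, 6 role groups above the line) and of 121 other cell cycle genes (grey, 9 lists), on a log axis. Each point is a gene, red bars are list medians and the dashed line is a TPM of 1. The checkpoint group lies left of the line, as does most of the kinetochore list, while origin, fork and p53 lists lie mostly right of it.

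The replicates ranked the members alike (Spearman's rho 0.957 across 43 genes, which share the 2 libraries and are not independent). A two-sided exact binomial test on rounded counts scaled by TMM, with Benjamini-Hochberg adjustment over 13298 genes, compared these libraries and not conditions. At an adjusted p under 0.05 and a fold of at least 2, it called 3 of the 43 members, all lower in replicate 2, where the rule called 2.52% of all genes. It called no member higher in replicate 2, where it called 3.01% of all genes, and the largest upward log2 ratio among members was 0.66. At any fold, 17 members were lower and 10 higher in replicate 2 by that test, with 31.1% and 25.3% of all genes, and 16 did not pass. With a biological coefficient of variation of 0.1 assumed in edgeR's exact test, 5 members were lower and 2 higher at any fold, and with 0.2 there was 1 lower and none higher (3 lower and 0 higher at an unadjusted p under 0.05). The share of all genes at any fold is not given for these settings, so these counts are not a result about the members. At a fold of at least 2, coefficients of 0.1 and 0.2 called 3 and 1 members, with 509 and 138 of the 13298 genes.

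The 3 members at least 2-fold apart were a G1 cyclin and a pair of mitotic genes, all with few counts. Ube2c had 78 and 14 expected counts in replicates 1 and 2 and a log2 ratio of replicate 2 over replicate 1 of -2.10 (counting SE 0.42, adjusted p 3.78e-08 by the exact binomial test). Ccne2 had 178 and 54.6 expected counts and a ratio of -1.32 (SE 0.22, adjusted p 1.34e-09 by the same exact test). Birc5 had 113 and 36 and a ratio of -1.27 (SE 0.28, adjusted p 4.02e-06, exact). With an assumed coefficient of variation of 0.2, Ube2c alone was called, at an adjusted p of 0.0397 in edgeR's exact test, while Ccne2 and Birc5 were at 0.246 and 0.399. Ccne2 shares 5622 bases with Ints8 on the other strand, which had 891 and 683 expected counts. Whether counting used strand is not given in the sources used here, so that reads of that pair cannot be told apart.

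The helicase genes ran the other way. Mcm2 to Mcm7 were all higher in replicate 2, with log2 ratios from 0.22 (Mcm7) to 0.66 (Mcm5) and a median of 0.58, against a median of -0.04 and 45.7% of genes higher over all genes tested. Mcm6 had a log2 ratio of 0.61 (SE 0.04, adjusted p 2.36e-46 by the exact binomial test). The sign held for all 6 under all 7 settings tried. Of these, only the read-based setting uses other counts, and the rest could hardly change a sign. An adjusted p under 0.05 in edgeR's exact test was reached by 2 of 6 (Mcm5 and Mcm6) with a coefficient of 0.1 and by none, adjusted or not, with 0.2. The share of all genes at any fold is not given for these coefficients, so that count is not a result about the helicase genes. By the exact binomial test, Mcm7 lost an adjusted p under 0.05 with no count filter and in the read-based table. Mcm7 had a slightly lower TPM in replicate 2 but a positive ratio of scaled counts. The 7SL share was lower in replicate 2, and so was the protein-coding share (26.2% of TPM, against 29.9% in replicate 1). Within Mcm7, the leading transcript Mcm7-201 stood at 1.43 and 1.65 TPM in replicates 1 and 2, on 441 and 415 expected counts. The shorter Mcm7-209, of 795 bases, stood at 0.50 and 0.20 TPM on 32.0 and 10.5 counts. The part of these transcripts or of the library shares in the difference in direction was not tested. Of the 20 mitotic genes 16 were lower in replicate 2 (80%, median -0.36), with 54.3% of all genes tested, among them Mki67 at -0.33 and Tpx2 at -0.50. Cdkn1a was lower in replicate 2 as well, at -0.67 with a counting SE of 0.01 and an adjusted p of 0.0201 in edgeR's exact test at a coefficient of 0.1 and of 1 at 0.2. Malat1 and Neat1 moved with the helicase genes, as given above, but the nuclear RNAs Xist and Kcnq1ot1 were at log2 ratios of -0.52 and 0.10. Macrophage markers were mixed. Adgre1 was the most raised in replicate 2, at 1.07, while Cd14 and Cd68 were at -0.52 and -0.27 and the rest were higher in replicate 2. Of the neutrophil markers S100a8, S100a9, Ngp and Ltf were also higher in replicate 2, at 1.02, 1.27, 1.84 and 2.06, and Mmp8 was at -0.33. The progenitor marker Flt3 had 3 and 26 expected counts in replicates 1 and 2, but Kit went the other way, at a log2 ratio of -0.59. Myb and Gfi1, also progenitor markers, were at 1.27 and 0.35, with adjusted p of 0.11 and 0.28 by the exact binomial test. The part of nuclear RNA or of these cell types in the differences was not tested.

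**Figure D4:**
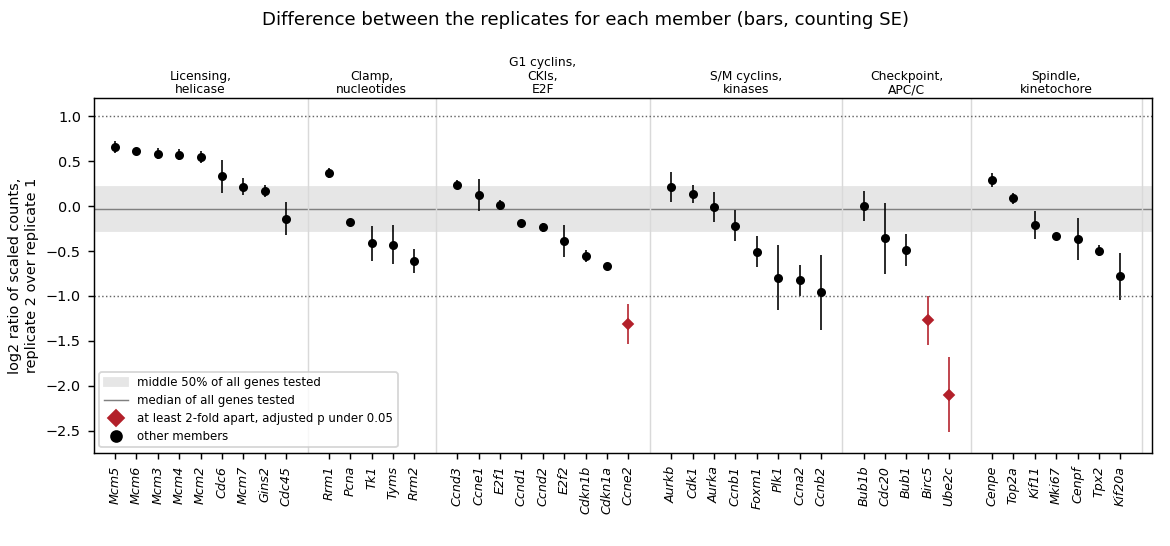
log2 ratio of scaled counts, replicate 2 over replicate 1, for each member by role, with bars for the counting SE. Red diamonds are the 3 members at least 2-fold apart at an adjusted p under 0.05; the grey band holds the middle 50% of the 13298 genes tested, from -0.27 to 0.21, and dotted lines mark 2-fold. The helicase genes lie above the median line except Cdc45, and most mitotic genes lie below it.

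The 43 members have 229 annotated transcripts. Of the 20 detected members 19 had the same leading transcript by TPM in both replicates, and in 9 it held at least 90% of the gene's TPM in both. Cdkn1a-201 held 99.3% and 98.9% and Mki67-201 97.6% and 95.8% in replicates 1 and 2. E2f1 was the exception in these alignment-based values, where E2f1-201 held 52.0% and 43.1% and the other annotated transcript the rest. In the read-based table E2f1-201 led in both replicates, at 73.4% and 67.0%. In 5 detected members transcripts annotated as not coding a full protein held at least 10% of TPM in both replicates, namely Mcm3, Tyms, Rrm1, Cdk1 and Top2a. How often other detected genes do the same was not counted, so these counts describe the members without setting them apart.

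Cdk1 shows how far the TPM shares of transcripts depend on the scale. Cdk1-204, a retained intron transcript of 475 bases, held 44.8% and 33.1% of Cdk1 TPM on 67.3 and 33.2 expected counts. The leading protein coding transcript, 1253 bases long, held 48.7% and 61.4% on 296 and 256 counts. By counts the protein coding transcripts held 83.4% and 90.4% of Cdk1. In the read-based table Cdk1-204 led in replicate 1, at 42.5% of TPM, and the protein coding transcript in replicate 2. Tyms was the single detected member led by a transcript that is not protein coding in the alignment-based table. That was Tyms-205, a target of nonsense mediated decay of 618 bases with 55.6% and 54.7% of TPM on 32.9 and 19.8 counts. By counts Tyms-201, the protein coding form of 3163 bases, led with 56.9 and 23.6. Protein coding transcripts together held 31.1% and 30.7% of Tyms TPM, and they alone would not have reached the detection limit. Retained intron transcripts of Mcm3 held 42.3% and 38.7% of its TPM but 10.7% and 9.58% of its counts, and processed transcripts of Top2a 34.3% and 31.1% of TPM but 5.72% and 5.0% of counts. Rrm1 had 26.6% and 11.9% of TPM on decay targets, and 4.72% and 1.72% of counts.

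**Figure D5:**
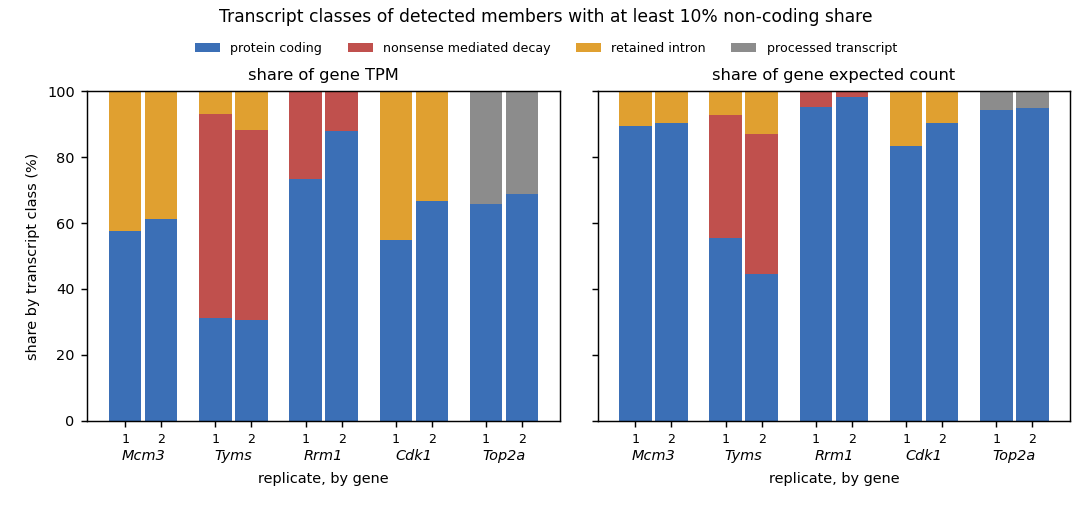
Share of gene TPM (left) and of gene expected count (right) by annotated transcript class for the 5 detected members with at least 10% of TPM outside protein coding transcripts, in percent, with a bar for each replicate. The share outside protein coding is smaller by counts than by TPM in all 5.

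The members ranked much alike in the table made directly from reads. Read-based TPM was 0.580 and 0.454 of the alignment-based TPM at the median member in replicates 1 and 2, and all 43 lay within 1.5-fold of that median. Spearman's rho between the tables was 0.997 and 0.994 over the 43 members, given as a description. Mcm3 fell farthest below the median in both replicates. Of the 43 members 21 overlap another annotated gene, 12 of them a protein-coding gene. The share of all genes with such an overlap is not given here. Ccna2 shares 863 bases with Exosc9 (1359 and 1041 expected counts), Kif20a 2327 bases with Cdc23 (1025 and 843), and Gins2 10672 bases with Gm20388 (3199 and 3833), each on the other strand, so that the levels of these members are uncertain by the reads such neighbours could give. Mki67 and Ube2c overlap genes with at most 0.02 TPM.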

How the data were processed

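The choice of members used no threshold on these data, but members and gene lists were chosen with earlier results of these data known. Alignment-based gene and transcript tables and a read-based transcript table were deposited per library. The authors deposited expected counts (not depth-scaled), TPM, FPKM and, per transcript, percent of gene TPM, per the file headers. The accompanying notes name mm10 and GENCODE M21. The sources used here do not give aligner, quantifiers or strandedness. Levels are deposited gene TPM, as mean ± SD over 2 replicates. Detection needed a TPM of 1 in both. With 1 group, no group test was possible. For the replicate comparison, expected counts were rounded, scaled by TMM (edgeR 4.0.16) and tested, for genes averaging 10 counts or more, by a two-sided exact binomial test (scipy 1.17.1), adjusted by Benjamini-Hochberg over all genes. This test and counting SEs cover counting error only. Alternatives were DESeq2 1.42.0 size factors, library totals, no count filter, read-based counts and edgeR's exact test with assumed coefficients of variation of 0.1 and 0.2. The test was tried on simulated counts. Named genes are all members, the 3 highest and 2 lowest genes of each other list, and preset regulators (Samhd1, Rb1, Rbl2, Cdk2, Cdk4, Cdk6, Cdt1, Gmnn, Mybl2, Trp53 and Mdm2). A gene that this rule names is not reported here.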

Additional observations from a re-analysis of the deposited data

How the results depend on the processing

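The number of detected members (20) was 35 with TPM rescaled to protein-coding genes, 31 at a TPM minimum of 0.5 and 43 at 10 expected counts, and 21 to 23 with either replicate left out. These settings also change the share of all genes detected, which is not given for them. The median level (1.15 TPM) was 4.07 with rescaled TPM, 2.07 in FPKM, 0.651 in the read-based table and 4.40 when members under TPM 1 were dropped, and 0.97 to 1.33 with either replicate left out. The replication minus mitotic difference (log2 1.91) was 1.17 with a pseudocount of 1, 2.58 in CPM and 1.49 to 2.34 with either replicate left out. Over members at TPM 1 in both replicates it turned to -0.42, with -0.85 in replicate 1 and 0.01 in replicate 2, a setting that leaves 4 of 20 mitotic genes. Calls between replicates (3) numbered 1 with an assumed coefficient of variation of 0.2, where 138 of 13298 genes were called. They numbered 27 with no minimum fold, where 31.1% of all genes were lower and 25.3% higher in replicate 2. The same 3 members were called under the other 5 alternatives. The count of members with the same leading transcript was 19 under all 3 alternatives, of which ranking by counts was chosen after seeing the data. The exception differed, being E2f1 in the alignment-based table and Cdk1 in the read-based one. Across both tables and both replicates, 18 detected members kept 1 leading transcript. Among values of single members, 349 alternatives kept the call or stayed within the replicate spread, 122 moved and 2 lost the call. Since 3 of 43 members were called, most kept ratio calls are members that were not called under either setting. Such a member can lose a low adjusted p and still count as kept. Mcm2 did so, at 1.39e-14 by the exact binomial test and 0.105 in edgeR's exact test at a coefficient of 0.1. No paired analysis was possible because the samples form 1 group. Depth limits the low mitotic members most, with 14 to 78 counts for Ube2c and 17 to 43 for Ccnb2.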
